A study of Mus musculus with 39 samples.

Results

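The chemokine genes Cxcl1, Cxcl2, Cxcl3 and Cxcl5 encode ligands of the receptor CXCR2, and they were followed across RNA sequencing libraries of tumour cells sorted from mouse pancreatic tumours. The genes were taken by symbol, 4 of 39017 genes in the counts table, because Cxcl1 made by tumour cells is known for a part in keeping T cells out of pancreatic tumours. Clones of tumour cells had been injected subcutaneously in C57BL/6 hosts, and the tumours were taken for sorting 3 weeks later with no treatment. The study asked which genes differ between clones of T cell high tumours, which are rich in T cells, and clones of T cell low tumours. The T cell high class had 6 clones (14 libraries), the T cell intermediate class 2 clones (4 libraries) and the T cell low class 9 clones (18 libraries), while 3 clones with 1 library each had no class. A name such as yfp_6499c4 gives the parent line and the clone, and clones with the same line number are taken as sisters. The sources used here give neither the driver alleles of the lines nor the sex and age of the hosts. Each library is a bulk measurement of cells grown from one clone, so a difference between classes is a difference between these few clones.

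CXCR2 ligands are small secreted proteins that carry a glutamate-leucine-arginine motif before the first cysteines and that draw neutrophils and other myeloid cells with CXCR2 on their surface. Interleukin 1, tumour necrosis factor and interleukin 17 induce them through the transcription factor NF-kB, and their messenger RNA is short-lived because proteins that bind AU-rich sequences direct its decay. In pancreatic cancer, ligands made by the tumour cells are known for recruiting neutrophils and myeloid suppressor cells, and loss of CXCR2 signalling is known to let more T cells in.

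All 4 genes lay on the plus strand within a short stretch of mouse chromosome 5 (GRCm38, GENCODE M21). Cxcl5 was at chr5:90759360-90761624, Cxcl3 at chr5:90786103-90789600, Cxcl1 at chr5:90891241-90893115 and Cxcl2 at chr5:90903871-90905938. The 45 bases of coding sequence around the glutamate-leucine-arginine motif are shown for the reference transcript of each gene, because this motif defines ligands of CXCR2. The codons of the motif are in capitals.
Cxcl1: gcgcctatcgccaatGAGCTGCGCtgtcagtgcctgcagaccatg
Cxcl2: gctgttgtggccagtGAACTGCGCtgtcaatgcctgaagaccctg
Cxcl3: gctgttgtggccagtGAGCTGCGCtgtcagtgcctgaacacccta
Cxcl5: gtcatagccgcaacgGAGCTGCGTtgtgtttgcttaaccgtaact
The motif took codons 30 to 32 in Cxcl1, 33 to 35 in Cxcl2 and Cxcl3, and 50 to 52 in Cxcl5. Over the aligned coding sequence, Cxcl2 and Cxcl3 were identical at 89.8% of bases and shared an unbroken run of 110 bases. The other pairs were identical at 64.7% to 78.7% of bases, and their longest shared run was 23 bases. Reads that fall within the run shared by Cxcl2 and Cxcl3 cannot be placed in either gene, so the counts of these genes are uncertain to that extent.

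The 120 bases before the RefSeq start site (GRCm38.p6) are shown for Cxcl1, Cxcl2 and Cxcl3, because these promoters hold the sites through which the inducing signals act. The RefSeq promoter table matched 3 of the 4 genes, all but Cxcl5. Capitals mark the runs of at least 8 bases that these 3 promoters share.
Cxcl1: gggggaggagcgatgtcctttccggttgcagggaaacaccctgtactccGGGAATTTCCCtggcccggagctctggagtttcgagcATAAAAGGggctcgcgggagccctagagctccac
Cxcl2: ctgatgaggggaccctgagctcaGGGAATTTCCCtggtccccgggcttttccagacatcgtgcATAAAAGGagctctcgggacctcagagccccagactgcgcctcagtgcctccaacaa
Cxcl3: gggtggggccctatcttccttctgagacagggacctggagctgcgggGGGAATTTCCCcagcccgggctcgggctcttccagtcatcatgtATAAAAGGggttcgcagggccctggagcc
These windows spanned chr5:90891125-90891244, chr5:90903779-90903898 and chr5:90785981-90786100. The run GGGAATTTCCC has the form of a binding site of NF-kB and began 71, 97 and 73 bases before the start of Cxcl1, Cxcl2 and Cxcl3. Searched on both strands, it occurred in 0.0426% of 32851 RefSeq promoters of the same length (250 bases before to 50 after the start), which belonged to 14 of 27025 genes. The run ATAAAAGG, of the TATA box type, occurred in 1.76% of the promoters and does not overlap the first run. Both are matches of letters and no measure of binding.

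Library totals ranged from 7638130 to 103794674 counts. Levels are counts scaled to the library total (CPM), and the level of a clone is that of its summed counts. The libraries fell into 2 kinds by the summed level of the heart muscle genes Myh6, Myh7, Myl2 and Mb. It was 152 to 4893 CPM in 19 libraries with heart transcripts and at most 0.235 CPM in 20 libraries without, called heart-free here. Tumour number 1 of the titles marked 18 of the 19 libraries with heart transcripts and 1 of the 20 heart-free ones, so the kind of library and the tumour number cannot be told apart. Among libraries with heart transcripts, 10 libraries of 10 clones (5 T cell high, 1 intermediate, 3 low, 1 with no class) lay closer to a library of another clone than any 2 libraries of one clone lay to each other. Closeness was the median over genes of the squared count difference in units of counting variance, which was 1.304 for the closest such pair, 4.34 for the closest libraries of one clone and would be 0.455 for counting noise alone. Whether these libraries hold RNA of the labelled clone alone was not tested, which limits every value drawn from them. Class comparisons are therefore given over all libraries and over the 17 clones that had heart-free libraries. Markers of pancreatic tumour epithelium (Krt7, Krt8, Krt18, Krt19, Epcam, Sox9) summed to 3863 to 11855 CPM in heart-free libraries of the 3 classes and to 4600 to 9322 CPM in those with heart transcripts.

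Cxcl1, the ligand for which the family was chosen, split the heart-free clones into 2 ranges. Among T cell high clones, yfp_2838c3 had 0.633, 0.456 and 0.874 CPM in its 3 heart-free libraries, yfp_6499c4 had 0.376 CPM and yfp_6555c3 had 1.24 CPM. The other T cell high clones had 20.2 CPM (yfp_6556c4), 14.996 CPM (yfp_6620c1) and 7.13 CPM (yfp_7160c2). The intermediate clones had 0.125 CPM (yfp_6422c5) and 8.60 CPM (yfp_7160c5). T cell high and intermediate clones were thus found in either range. T cell low clone yfp_2699c4 had 19.2 and 25.7 CPM, and yfp_6419c1, yfp_6419c4 and yfp_6419c5 had 24.5, 16.5 and 10.6 CPM. The remaining low clones had 0.209 CPM (yfp_6421c2), 7.68 CPM (yfp_6499c3), 49.7 CPM (yfp_6556c3) and 33.2 CPM (yfp_6694c2). All low clones but yfp_6421c2 were in the upper range, and yfp_7062c3, which has no class, was there too with 14.9 CPM. Levels were 398-fold apart between the lowest and the highest clone.

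No clone lay between 1.24 and 7.13 CPM of Cxcl1, a gap of 5.74-fold. Below it were 3 of 6 T cell high clones, 1 of 2 intermediate clones and 1 of 8 T cell low clones. The widest other step between neighbouring clones in the order of levels was 1.92-fold. Only yfp_2838c3 and yfp_2699c4 had several heart-free libraries. The 3 of yfp_2838c3, with 17, 19 and 32 reads, spanned 1.92-fold, and the 2 of yfp_2699c4, with 729 and 884 reads, spanned 1.34-fold. No step but the gap was clearly wider than the larger of these spreads, while the widest other step exceeded the smaller one. Levels below the gap rested on 5 to 37 reads per library. The exact 95% Poisson interval, which covers counting error only, was 0.0405 to 0.291 CPM for yfp_6422c5 and 0.876 to 1.71 CPM for yfp_6555c3, and 6.29 to 8.06 CPM for yfp_7160c2, the lowest clone above the gap. Counting error did not bridge the gap.

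**Figure D1:**
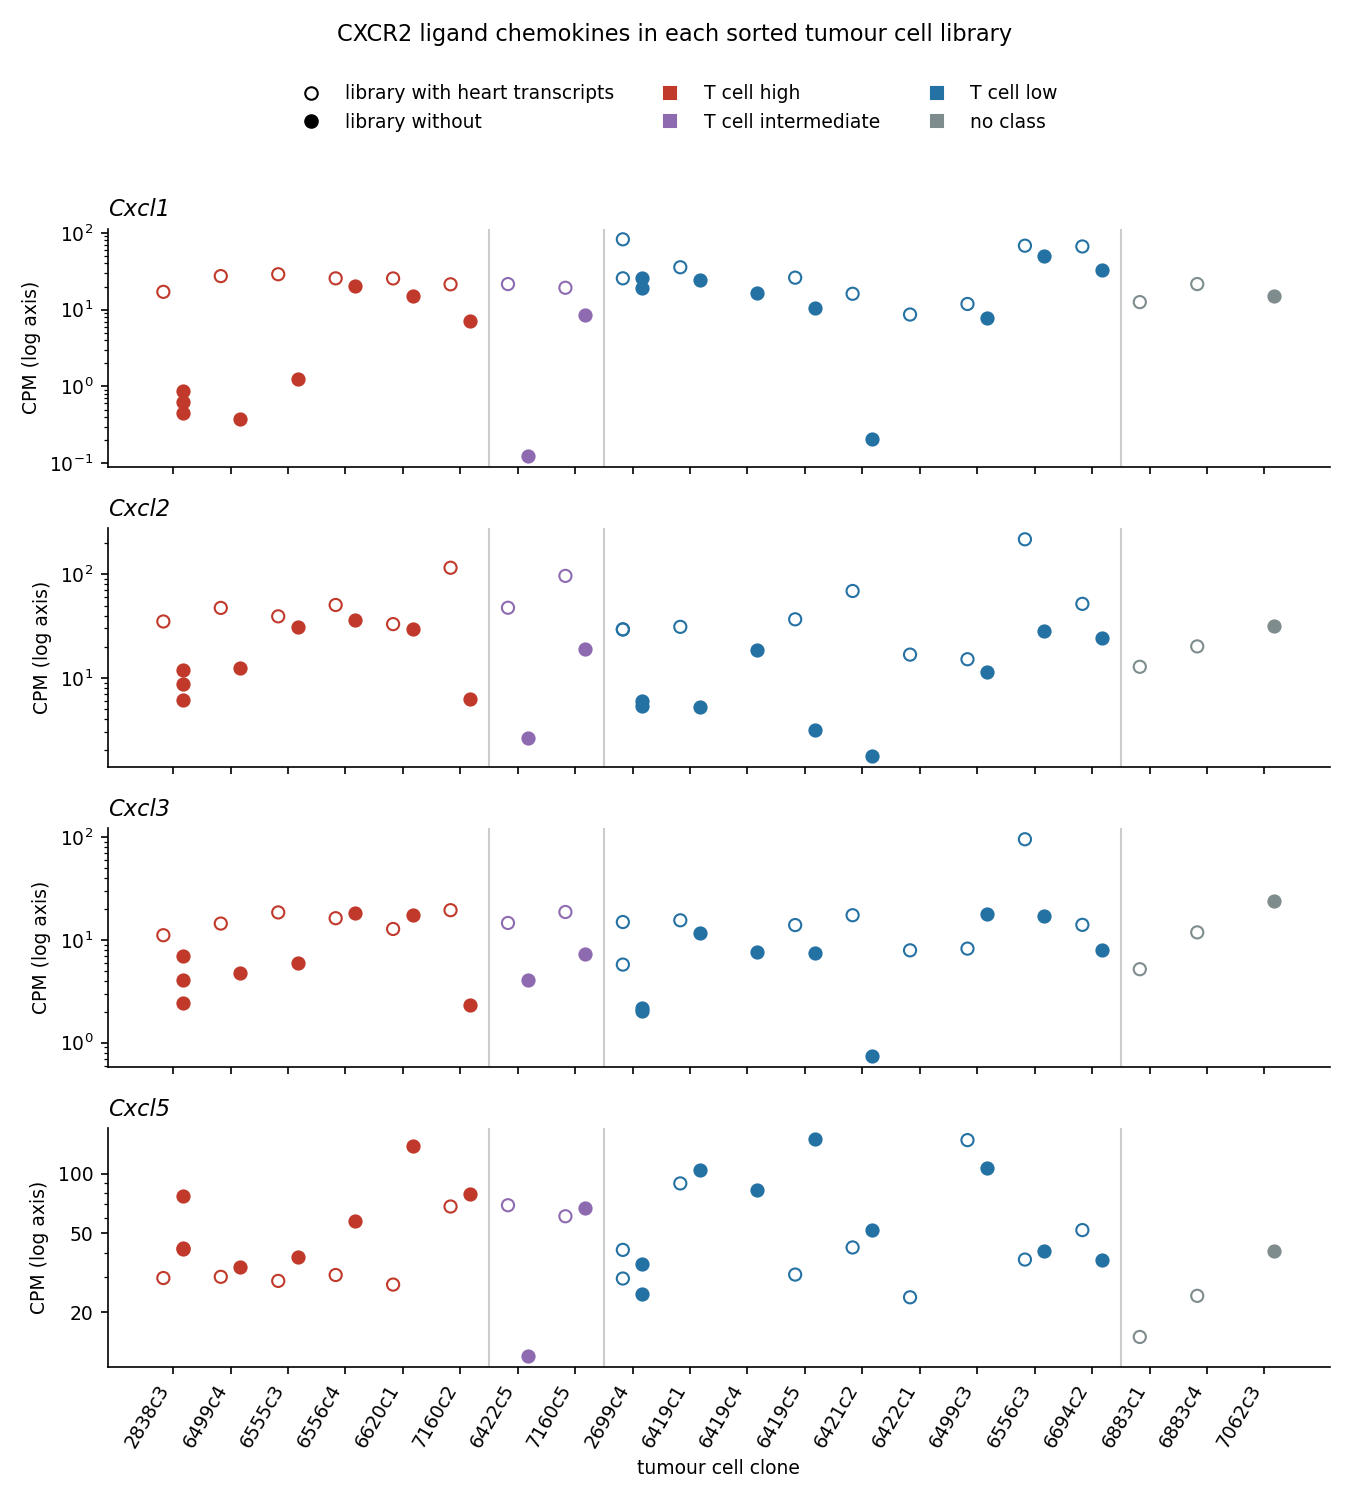
Levels of the 4 genes in every library (CPM, log axes) by clone, with T cell high clones at the left, then intermediate, low and unclassed clones, named without the prefix yfp. Open circles are libraries with heart transcripts and filled circles heart-free ones; filled Cxcl1 circles of 5 clones lie at 1.24 CPM or below, while every open circle lies at 8.64 CPM or above.

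Over clones, Cxcl1 averaged 7.43 ± 8.41 CPM in T cell high clones (SD, n = 6) and 20.6 ± 15.7 CPM in T cell low clones (SD, n = 8) in heart-free libraries. The difference was -1.44 ± 0.97 on the log2 scale (SE) with an adjusted p of 0.514 by edgeR's quasi-likelihood test, so it did not pass the threshold of 0.05. The classes overlapped: 4 of 8 low clones were above every high clone, and no high clone was below every low clone. An exact two-sided permutation test of the mean log2(CPM + 1), over all 3003 splits of the clones, gave a difference of -1.58 and p = 0.110. Without yfp_6556c4, the T cell high clone with most Cxcl1, the edgeR difference was -2.12 ± 1.04 (adjusted p = 0.328). Without yfp_6556c3, the T cell low clone with most Cxcl1, it was -1.13 ± 0.98 (adjusted p = 0.632). Over all libraries, Cxcl1 averaged 15.5 ± 5.67 CPM in T cell high clones (SD, n = 6) and 25.7 ± 19.4 CPM in T cell low clones (SD, n = 9), a difference of -0.83 ± 0.47 (adjusted p = 0.479). Without the libraries that lay close to another clone's, this difference was -1.52 ± 0.74 (adjusted p = 0.427). Neither fit called any member or any other gene: 0% of 15635 genes in heart-free libraries and 0% of 18551 genes over all libraries. At an unadjusted p under 0.05 there were 2095 and 2176 genes, none of them a member. DESeq2 called 299 genes in heart-free libraries and 123 over all libraries, again with no member among them. In bulk libraries, fewer cells that make a transcript and less of it in each cell cannot be told apart.

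**Figure D2:**
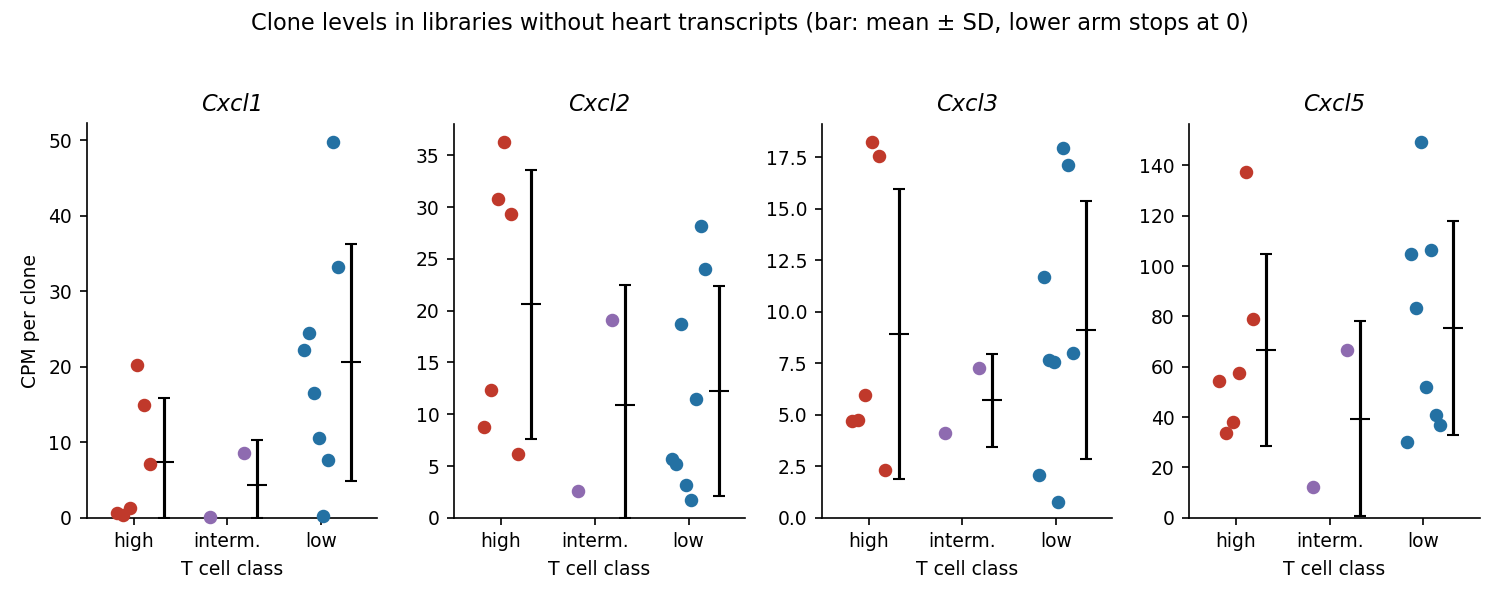
Levels per clone in heart-free libraries (CPM, linear axes from 0), with T cell high, intermediate and low clones from left to right and a bar for the mean ± SD of each class. Cxcl1 reached 49.7 CPM in low clones and 20.2 CPM in high clones, and every gene overlapped between the classes.

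Cxcl2, a second strong neutrophil attractant, leaned the other way in heart-free libraries. T cell high clones had 36.3 CPM (yfp_6556c4), 30.8 CPM (yfp_6555c3), 29.4 CPM (yfp_6620c1), 12.4 CPM (yfp_6499c4) and 6.19 CPM (yfp_7160c2), and 6.09 to 11.9 CPM in the 3 libraries of yfp_2838c3. T cell low clones had 28.2 CPM (yfp_6556c3), 24.1 CPM (yfp_6694c2), 18.7 CPM (yfp_6419c4), 11.4 CPM (yfp_6499c3), 5.18 CPM (yfp_6419c1), 3.12 CPM (yfp_6419c5) and 1.76 CPM (yfp_6421c2), and 5.34 and 5.95 CPM in yfp_2699c4. The upper 3 of the 6 high clones were above every low clone, and the rest overlapped. The means were 20.6 ± 12.97 CPM in T cell high clones (SD, n = 6) and 12.3 ± 10.2 CPM in T cell low clones (SD, n = 8). The difference of 0.76 ± 0.61 log2 had an adjusted p of 0.596 (edgeR), and the exact permutation test gave p = 0.184. Over all libraries the difference was 0.05 ± 0.52 (adjusted p = 0.971), and -0.45 ± 0.71 without the close libraries.

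Transcripts of several other cell types leaned the same way as Cxcl2 in the heart-free comparison. All 8 macrophage markers, all 4 pan-leukocyte markers and the 3 neutrophil markers that could be tested had positive differences, with medians of 1.54, 1.68 and 1.70 log2 beside -0.002 for all genes, and none of them passed. All 6 fibroblast markers (median 1.04), all 4 endothelial markers (median 1.13) and all 6 epithelial markers (median 0.41) were positive too, also without passing. Neutrophil markers summed to 2.49 to 60.6 CPM (median 6.94) in the 8 heart-free T cell high libraries and to 1.41 to 14.7 CPM (median 3.21) in the 9 heart-free T cell low libraries. Macrophage markers summed to 108 to 3132 CPM (median 895) in the T cell high libraries and to 94.1 to 1682 CPM (median 315) in the T cell low libraries. Clone yfp_6555c3, with 30.8 CPM of Cxcl2, held the highest neutrophil sum, and yfp_6556c4, with 36.3 CPM, held 4.62 CPM of neutrophil and 108 CPM of macrophage markers. The part of these transcripts in the members' levels was not tested.

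Cxcl3, the close relative of Cxcl2, had nearly the same mean in both classes in heart-free libraries. Heart-free T cell high clones had 18.3 CPM (yfp_6556c4), 17.6 CPM (yfp_6620c1), 5.98 CPM (yfp_6555c3), 4.77 CPM (yfp_6499c4) and 2.32 CPM (yfp_7160c2), and yfp_2838c3 had 2.46 to 6.97 CPM in 3 libraries. Among T cell low clones, yfp_6499c3 had 17.98 CPM, yfp_6556c3 had 17.1 CPM and yfp_6419c1 had 11.7 CPM, while yfp_6694c2, yfp_6419c4 and yfp_6419c5 had 7.98, 7.67 and 7.55 CPM. Clone yfp_2699c4 had 2.03 and 2.18 CPM, and yfp_6421c2 was the lowest of all at 0.747 CPM. The ranges of the classes overlapped over nearly all of their extent. The means were 8.93 ± 7.06 CPM in T cell high clones (SD, n = 6) and 9.11 ± 6.27 CPM in T cell low clones (SD, n = 8), a difference of 0.01 ± 0.63 log2 (adjusted p = 0.999 by edgeR, exact permutation p = 0.970). The SE leaves room for differences of either sign. Over all libraries the difference was -0.39 ± 0.48 (adjusted p = 0.727). The highest heart-free level of Cxcl3, 23.9 CPM, was in the unclassed clone yfp_7062c3.

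Cxcl5, a ligand made mainly by epithelial cells, was the most abundant member per kilobase of annotated exon in heart-free libraries. Heart-free T cell high clones had 137 CPM (yfp_6620c1), 79.1 CPM (yfp_7160c2), 57.6 CPM (yfp_6556c4), 37.9 CPM (yfp_6555c3) and 33.7 CPM (yfp_6499c4), and yfp_2838c3 had 41.8, 42.4 and 76.9 CPM. T cell low clones had 149 CPM (yfp_6419c5), 107 CPM (yfp_6499c3), 105 CPM (yfp_6419c1), 83.2 CPM (yfp_6419c4), 52.1 CPM (yfp_6421c2), 40.9 CPM (yfp_6556c3) and 36.7 CPM (yfp_6694c2), and yfp_2699c4 had 34.8 and 24.8 CPM. The sister clones yfp_6419c1, yfp_6419c4 and yfp_6419c5 were among the upper 4 low clones. The means were 66.7 ± 38.2 CPM in T cell high clones (SD, n = 6) and 75.4 ± 42.5 CPM in T cell low clones (SD, n = 8), a difference of -0.17 ± 0.39 log2 (adjusted p = 0.877, exact permutation p = 0.752). Over all libraries the difference was -0.42 ± 0.36 (adjusted p = 0.598). Only the intermediate clone yfp_6422c5 stood apart, at 12.1 CPM against 30.04 CPM in the next clone, a step of 2.49-fold against 1.84-fold among the libraries of yfp_2838c3.

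Per kilobase of annotated exon, heart-free T cell high clones averaged 35.8 CPM of Cxcl5, 9.97 of Cxcl2, 3.96 of Cxcl1 and 2.55 of Cxcl3. T cell low clones averaged 40.5 CPM per kilobase of Cxcl5, 10.97 of Cxcl1, 5.93 of Cxcl2 and 2.603 of Cxcl3. Cxcl5 led in each of these classes, and the means of Cxcl1 and Cxcl2 held opposite places. In T cell low clones the SDs were 8.36 for Cxcl1 and 4.91 for Cxcl2, so their order there is not separated beyond the spread. The lengths were unions of all annotated exons, 1875 bases for Cxcl1, 2068 for Cxcl2, 3498 for Cxcl3 and 1863 for Cxcl5. The transcripts of the coding windows have 953, 1109, 1016 and 1575 bases in the same order. Values per kilobase, and with them the places of Cxcl1, Cxcl2 and Cxcl3, therefore depend on the length used. With heart transcripts, T cell high clones averaged 25.9 CPM per kilobase of Cxcl2 and 19.3 of Cxcl5. Among heart-free T cell high clones the spread was wide, with SDs of 20.5 for Cxcl5, 6.27 for Cxcl2, 4.48 for Cxcl1 and 2.02 for Cxcl3, so the places of Cxcl2, Cxcl1 and Cxcl3 are not separated beyond it.

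The intermediate clones stood apart from each other. In heart-free libraries, yfp_6422c5 had 0.125 CPM of Cxcl1, 2.62 of Cxcl2, 4.12 of Cxcl3 and 12.1 of Cxcl5, and yfp_7160c5 had 8.60, 19.1, 7.28 and 66.8 CPM. Over all libraries the intermediate clones averaged 10.3 ± 4.87 CPM of Cxcl1 (SD, n = 2), against 25.7 ± 19.4 CPM in T cell low clones (SD, n = 9). The difference of -1.39 ± 0.75 log2 did not pass (adjusted p = 0.997), nor did that against T cell high clones, -0.54 ± 0.73 (adjusted p = 0.99999). For Cxcl2, Cxcl3 and Cxcl5, differences of intermediate clones lay between -0.65 and 0.02 log2 against low clones and between -0.24 and -0.01 against high clones, and none passed. These fits called 0.00499% (1 of 20028 genes) against low clones and 0% against high clones. At an unadjusted p under 0.05 edgeR had 1009 genes against low clones and 414 against high clones. The T cell low and T cell high clones serve in several of these comparisons, so the comparisons are not independent.

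The lines of yfp_6499c4 and yfp_6556c4 each held a T cell high and a T cell low clone. In the first line, Cxcl1 was 0.376 CPM in the heart-free library of the high clone yfp_6499c4 and 7.68 CPM in that of the low clone yfp_6499c3. In the other line it was 20.2 CPM in the high clone yfp_6556c4 and 49.7 CPM in the low clone yfp_6556c3. In the heart-free libraries, 1 per clone, the high clone was thus lower in each line. In libraries with heart transcripts the first line went the other way, with 27.4 CPM in yfp_6499c4 and 11.9 CPM in yfp_6499c3. In the other line yfp_6556c4 had 25.6 CPM there and yfp_6556c3 had 68.1 CPM. These libraries of yfp_6499c4 and yfp_6556c4 were among those close to another clone's, and those of yfp_6499c3 and yfp_6556c3 were not. The fit within lines had a term for the line and none for the kind of library. Its SE and p therefore also take in the spread between kinds. By edgeR it called 0% of 16045 genes, with 1505 at an unadjusted p under 0.05. With 1 heart-free and 1 heart-bearing library of each clone in this fit, the Cxcl1 difference was -0.44 ± 1.01 log2 (adjusted p = 0.907). It was -2.55 ± 0.80 in the heart-free libraries alone (unadjusted p = 0.0198, adjusted p = 0.746). That fit had 1 library per clone, so its SE and p hold no spread between libraries of a clone. They rest largely on the spread shared across genes. Without the library of yfp_6499c4 that holds heart transcripts and 27.4 CPM of Cxcl1, the Cxcl1 difference was -2.33 ± 0.73 (adjusted p = 0.745). Without the heart-free library of yfp_6499c4 instead, it was -0.15 ± 0.61 (adjusted p = 0.941). Without the close libraries of yfp_6499c4 and yfp_6556c4, it was -2.55 (adjusted p = 0.357). Cxcl2, Cxcl3 and Cxcl5 differed within lines by -0.16 ± 0.86, -1.05 ± 0.63 and -0.86 ± 0.52 log2, and none passed (adjusted p of 0.605 or more).

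**Figure D3:**
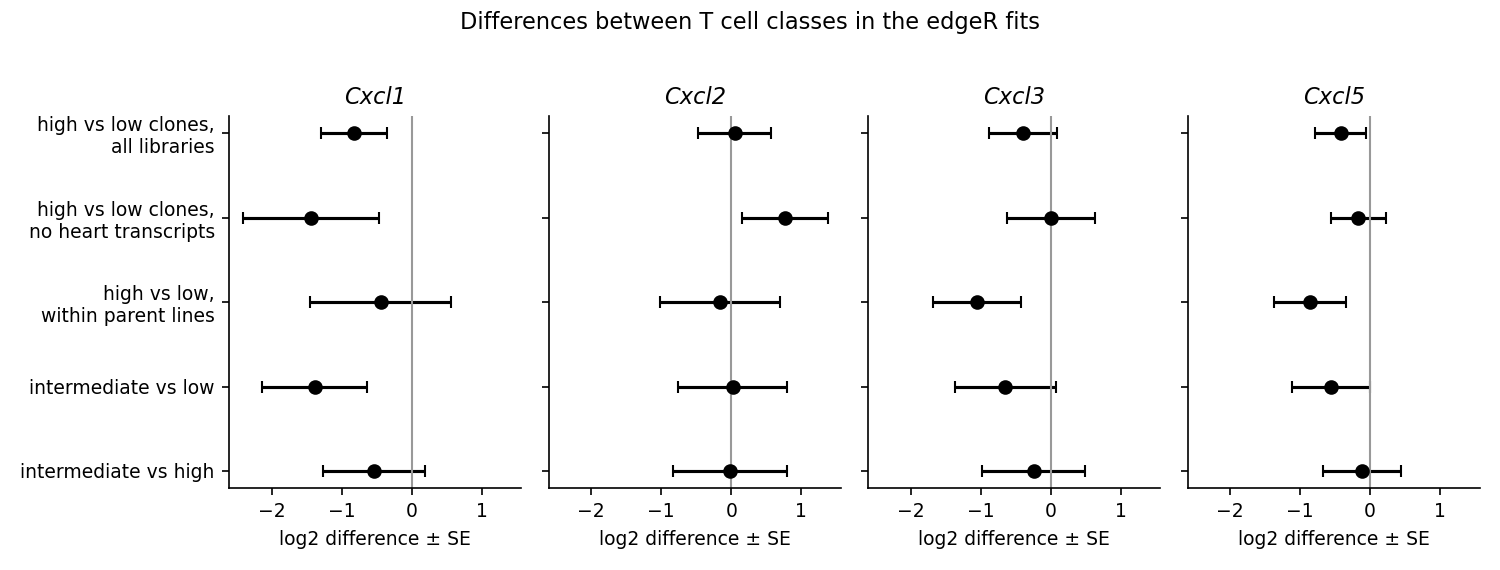
Differences between classes (log2, with the SE as bars) from the edgeR fits, one panel per gene and one row per comparison, the class named first over the other. No difference passed an adjusted p of 0.05. Cxcl1 lay below 0 in each of the 5 comparisons, from -1.44 to -0.44, but the comparisons share clones. They also ask different questions, as intermediate clones lay below high clones too (-0.54).

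Libraries with heart transcripts held more Cxcl1, Cxcl2 and Cxcl3 than heart-free libraries of the same clones. In the 15 clones with both kinds, Cxcl1 was higher in libraries with heart transcripts than in heart-free ones in 15 of 15 clones, and Cxcl2 likewise in 15 of 15. Of 14459 genes averaging 1 CPM or more, 9.78% were higher in every one of these clones. Cxcl3 was higher in 12 of 15 clones and Cxcl5 in 4 of 15. With the clone as a block, the edgeR differences were 2.20 ± 0.53 log2 for Cxcl1 (adjusted p = 0.00126), 2.17 ± 0.34 for Cxcl2 (adjusted p = 1.85e-05) and 1.35 ± 0.32 for Cxcl3 (adjusted p = 0.00124). Cxcl5 differed by -0.31 ± 0.25 and did not pass (adjusted p = 0.282). So 3 of 4 members were called higher, where 33.2% of 16482 genes were called higher and 26.5% lower. Without the libraries close to another clone's, 7 clones had both kinds of library, and the differences were 2.88 ± 0.72 for Cxcl1, 2.44 ± 0.45 for Cxcl2 and 1.48 ± 0.47 for Cxcl3 (adjusted p of 0.0107, 0.00220 and 0.0320).

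The clones below the Cxcl1 gap, which were picked by their heart-free level, are described without a test. Clone yfp_6499c4 had 27.4 CPM in its library with heart transcripts and 0.376 CPM in its heart-free one, and yfp_6555c3 had 28.9 and 1.24 CPM. Clone yfp_2838c3 had 17.1 CPM with heart transcripts and 0.647 CPM over its heart-free libraries, yfp_6422c5 had 21.5 and 0.125 CPM, and yfp_6421c2 had 16.1 and 0.209 CPM. All 5 stood above the gap when heart transcripts were present. The libraries with heart transcripts of yfp_6499c4 and yfp_6555c3 were among those close to another clone's, and those of the other 3 clones were not. In contrast, yfp_6556c4 had 25.6 CPM with heart transcripts and 20.2 CPM without, and yfp_6556c3 had 68.1 and 49.7 CPM. The span of Cxcl1 over libraries was 9.54-fold among the 19 with heart transcripts (8.64 to 82.5 CPM) and 398-fold among the 20 heart-free ones. In 6 of the close libraries, from 4 T cell high and 2 T cell low clones, Cxcl1 lay between 25.5 and 28.9 CPM and Cxcl5 between 27.6 and 31.0 CPM; these 6 were picked after their values were seen.

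**Figure D4:**
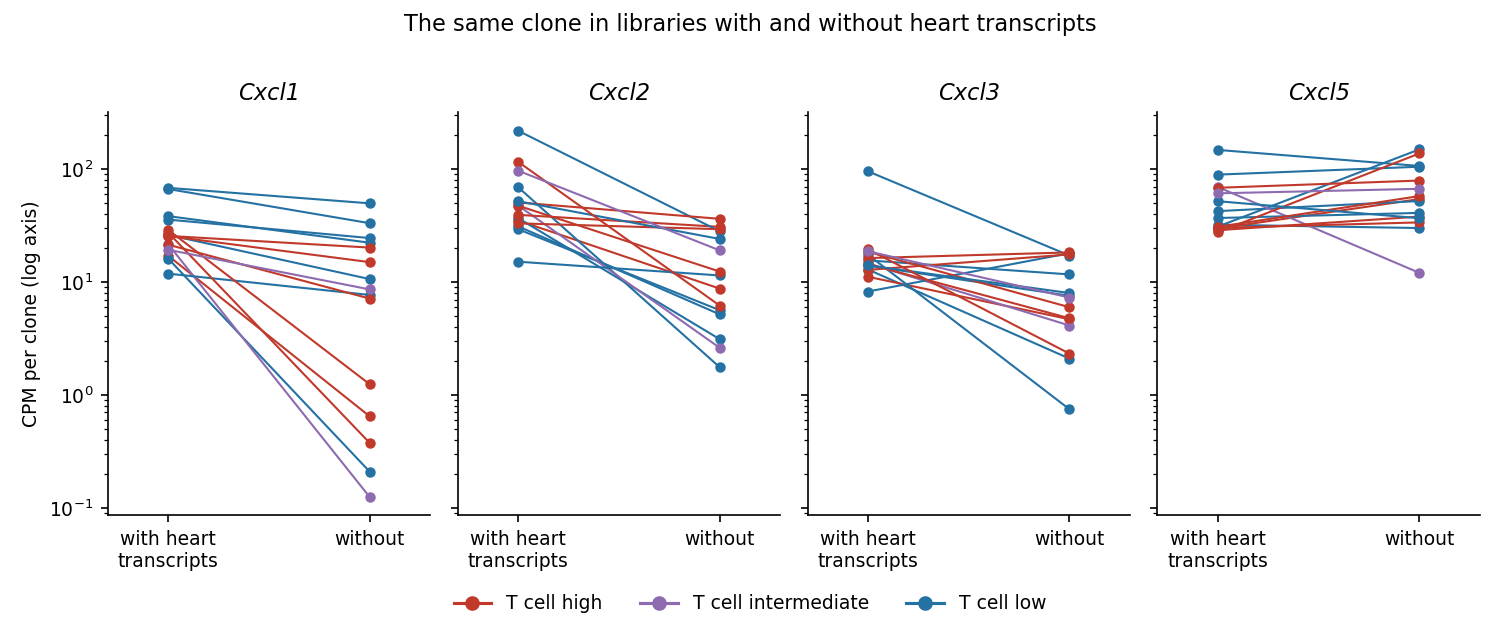
Levels in the same clone (CPM, log axis) in libraries with heart transcripts, at the left, and without, at the right, for 15 clones coloured by class. Cxcl1 and Cxcl2 were higher at the left in 15 of 15 clones and Cxcl3 in 12 of 15, while Cxcl5 was higher there in 4 of 15.

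Markers of several other cell types moved with the kind of library. With heart transcripts, 33.2% of all genes were called higher and 26.5% lower. All 5 neutrophil markers tested were called higher in libraries with heart transcripts, as were 6 of 8 macrophage, 6 of 6 fibroblast, 4 of 4 endothelial, 4 of 4 pan-leukocyte, 2 of 2 T cell and 6 of 6 liver markers. Of 6 pancreatic tumour epithelium markers, 0 were called higher and 3 lower, the keratins Krt8 and Krt19 and the ductal factor Sox9, by -0.28 to -1.04 log2. Krt18, Epcam and Krt7 did not pass, at -0.01, -0.61 and 0.23. The 8 neutrophil markers summed to 46.3 to 97.8 CPM in T cell high libraries with heart transcripts and to 2.49 to 60.6 CPM in heart-free ones. In T cell low libraries these sums were 18.6 to 312 CPM with heart transcripts and 1.41 to 14.7 CPM without. Csf3r reached 54.6 CPM and S100a9 150.7 CPM, while Mpo and Elane, granule genes of neutrophil precursors, reached 0.786 and 0.714 CPM. What part these cells have in the members' levels was not tested.

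Among the members, Cxcl2 and Cxcl3 varied together. Over the 17 clones with heart-free libraries, Pearson's r of log2(CPM + 1) was 0.70 (permutation p = 0.00208, adjusted p = 0.0374 over 18 relations) and Spearman's rho was 0.68 (permutation p = 0.00316, adjusted p = 0.0569). Without yfp_6421c2 and yfp_6422c5, the clones farthest from the median of Cxcl2, r was 0.57. Over all libraries of 20 clones, which mix the kinds of library, r was 0.78 (permutation, adjusted p = 0.00234). Without yfp_6556c3 and yfp_7160c2, the clones farthest from the median of Cxcl2 there, it was 0.64. These are also the members whose sequences share a long run, and sister clones of a line are among the points. Cxcl2 and the neutrophil marker sum had an r of 0.63 (permutation p = 0.00610, adjusted p = 0.0549), and 0.45 without the same clones. For Cxcl5, r was 0.06 with Cxcl2 (-0.34 without yfp_6421c2 and yfp_6422c5) and 0.32 with Cxcl3 (0.46 without yfp_6421c2 and yfp_7062c3), and neither passed the adjustment (permutation, adjusted p = 0.946 and 0.482). No pooled r is read for Cxcl1, whose clones fell on both sides of a gap.

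**Figure D5:**
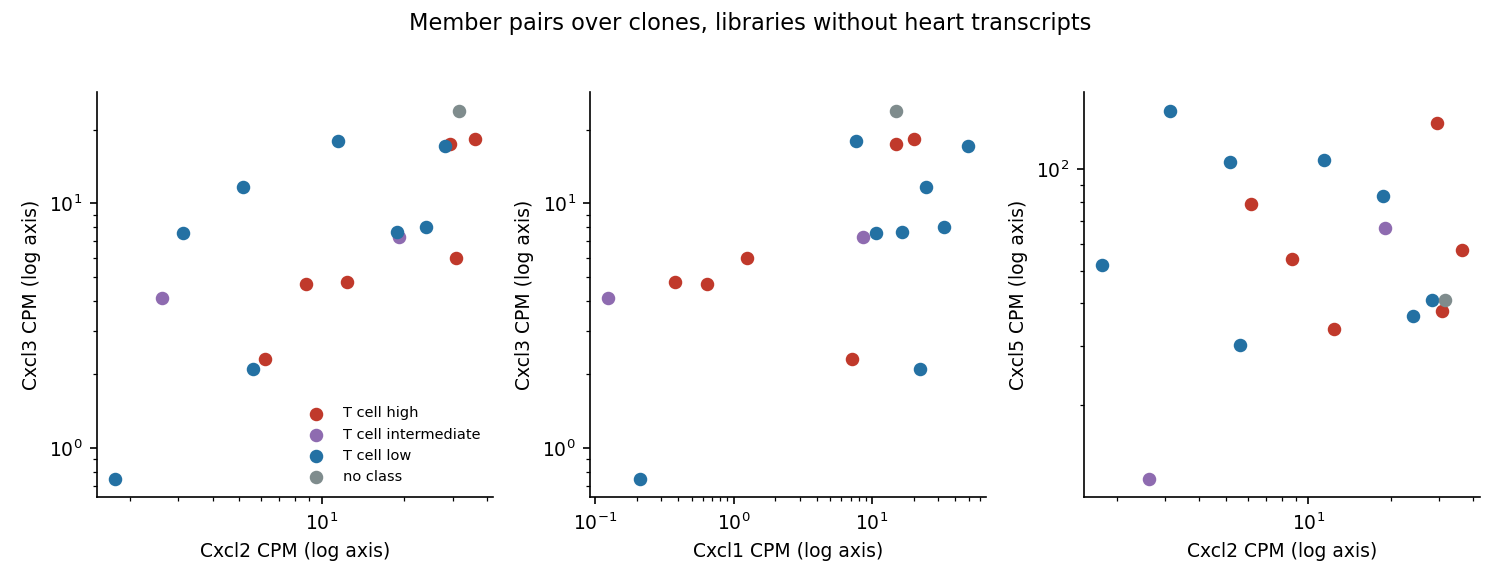
Pairs of members over the 17 clones with heart-free libraries (CPM, log axes), coloured by class. Cxcl2 and Cxcl3 rise together (r = 0.70), Cxcl1 against Cxcl3 shows 5 clones set apart at low Cxcl1, and Cxcl2 against Cxcl5 has an r of 0.06.

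For each member, the 5 genes with the most similar levels over the 17 heart-free clones were sought among 10592 genes that averaged 5 CPM or more. The genes ranked closest to Cxcl1 were Kctd11, Neurl4, the retinoic acid receptor gene Rara, Noc2l and the G protein subunit gene Gnb1. That ranking pools clones from both sides of the Cxcl1 gap, so no r is given for them. Cxcl2 was most like the immediate early gene Egr2 (r = 0.85), followed by Morf4l1, Aptx, Apol9b and the lysophosphatidic acid receptor gene Lpar1 (0.78 to 0.81). Cxcl3 was most like the integrin gene Itgb3 (0.82), Ywhaz, Trmt12, the placental growth factor gene Pgf and the long noncoding RNA Neat1 (0.73 to 0.81). Cxcl5 was most like Cdk11b (0.88), Fpgt, Slc35e2, Pex10 and Plekhn1 (0.82 to 0.87). Of these 20 genes, none was a listed member of the pathway. The 6 genes Pex10, Gnb1, Slc35e2, Cdk11b, Plekhn1 and Noc2l, 2 of them from the Cxcl1 set and 4 from the Cxcl5 set, lay within chr4:155067016-156247616. This was seen after the genes were chosen.

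No listed gene of the rest of the pathway passed between the classes in heart-free libraries, where 0% of all 15635 genes passed. These list counts are therefore no result about the pathway. At an unadjusted p under 0.05 (edgeR) stood 13.4% of all genes, the share to set beside the list counts. Among the other chemokine and receptor genes listed with the axis, 0 of 4 tested genes passed by edgeR in heart-free libraries, and 1 had an unadjusted p under 0.05. Cxcl15, the neighbouring ligand gene known from mouse lung, had the smallest p with a difference of -3.27 ± 1.18 log2 (adjusted p = 0.290). Its level was near the floor, with a median of 0.294 CPM in heart-free libraries. The receptor gene Cxcr2 differed by 1.54 ± 0.73, and the platelet chemokine genes Pf4 and Ppbp by 1.29 ± 0.67 and 0.73 ± 0.45. Cxcr2 itself was scarce, with a median of 5.42 CPM in libraries with heart transcripts and 0.407 CPM in heart-free ones. With heart transcripts, where 33.2% of all genes were called higher, 4 of 5 tested genes of this list were called higher. They were Cxcr2 by 3.40 ± 0.35, the erythrocyte and venule chemokine receptor gene Ackr1 by 4.63 ± 0.58, Ppbp by 1.54 ± 0.31 and Cxcl15 by 1.22 ± 0.52.

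Of the inducing cytokines and their receptors, 0 of 11 tested genes passed between T cell high and low clones in heart-free libraries. At an unadjusted p under 0.05 (edgeR) there were 2, beside 13.4% of all genes (0% after adjustment). Differences were positive for 8 and negative for 3 (median 0.33, beside -0.002 for all genes). The interleukin 1 gene Il1b differed by 1.71 ± 0.76 log2, the tumour necrosis factor gene Tnf by 1.38 ± 0.72, the interleukin 17 receptor adaptor gene Traf3ip2 by 0.40 ± 0.18 and the leukaemia inhibitory factor gene Lif by -0.77 ± 0.36 (adjusted p of 0.353 to 0.411). With heart transcripts against without, 7 of 12 tested genes rose and 2 fell, where 33.2% of all genes were called higher and 26.5% lower. Il6 rose by 3.50 ± 0.46, Il1b by 3.16 ± 0.50, the interleukin 1 co-receptor gene Il1rap by 1.75 ± 0.30 and Tnf by 1.47 ± 0.30. Il17rc fell by 0.60 on the log2 scale. The genes Il1a, Il1r1 and Il17ra also rose, by 0.96, 1.03 and 0.50, and Traf3ip2 fell by 0.22.

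Of 19 NF-kB subunits, regulators and targets, 0 passed by edgeR between the classes in heart-free libraries, where 0% of all genes passed. At an unadjusted p under 0.05 there were 0, beside 13.4% of all genes. Differences were positive for 10 and negative for 9 (median 0.09). The acute phase gene Saa3 differed by 1.61 ± 0.90 log2, Cebpb by 0.43 ± 0.24, Nfkb1 by -0.30 ± 0.19 and Ccl20 by -0.53 ± 0.39 (adjusted p of 0.432 to 0.563). With heart transcripts, 8 of the 19 rose and 5 fell. Saa3 rose by 3.81 ± 0.52, the neutrophil and epithelial gene Lcn2 by 3.01 ± 0.40 and the inhibitor gene Nfkbia by 0.56 ± 0.13, while the subunit genes Nfkb2 and Rela fell by 0.64 and 0.24. These counts stand beside 33.2% of all genes called higher and 26.5% called lower. The median of the list was 0.15 beside 0.04 for all genes.

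Of 7 genes that control decay of such transcripts, 0 passed by edgeR between the classes in heart-free libraries, where 0% of all genes passed. At an unadjusted p under 0.05 there were 0, beside 13.4% of all genes. Differences were positive for 2 and negative for 5 (median -0.07). The genes with the smallest p were the endonuclease gene Zc3h12a with 0.44 ± 0.24 and Zfp36 with 0.34 ± 0.23. Khsrp with -0.15 ± 0.11 and Zfp36l2 with -0.20 ± 0.16 followed. With heart transcripts, 1 of the 7 was called higher and 3 lower, beside 33.2% and 26.5% of all genes. Zfp36 rose by 0.75 ± 0.18, and Khsrp, Hnrnpd and Elavl1 fell by 0.69, 0.77 and 0.43. Of the genes that flank the chemokine cluster on chromosome 5, 0 of 5 tested passed between the classes in heart-free libraries (median -0.01). None passed before adjustment either, beside 13.4% of all genes (0% after adjustment). Ereg, an epidermal growth factor receptor ligand, had the largest difference at -0.32 ± 0.43. Rassf6 was the only flanking gene called with heart transcripts, by 0.37 ± 0.09, out of 5 tested. Areg and Btc, further growth factor genes there, differed by -0.13 ± 0.24 and -0.45 ± 0.22 without passing.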

How the data were processed

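RNA of sorted tumour cells was sequenced from 39 libraries. Per the labels' protocols, RNA was extracted with a micro column kit and libraries were made with an NEB kit. Per the submitters' processing notes, STAR, featureCounts and the mm10 genome were used. The sources used here give no versions, annotation release or strand setting. The deposited values are raw counts per gene, by the authors. Clones (libraries summed) were the replicates. edgeR 4.0.16 (R 4.3.3; filterByExpr, TMM, quasi-likelihood, Benjamini-Hochberg over all genes tested, threshold 0.05) was the test, also run on simulated counts. Within lines and between kinds of library, the library was the replicate. CPM uses library totals, and log2(CPM + 1) was used for permutations and correlations (100000 resamples). DESeq2 1.42.0, limma 3.58.1, other scalings, no filter, other replicates and left-out clones were alternatives; leaving out close libraries was chosen after seeing the data. Repeated symbols (214) used the row with most reads. Ackr1 and Adgre1 were matched by gene ID. Libraries of a clone are not stated to be separate animals, so their p-values may measure technical spread. Members and lists were chosen with earlier results of these data known. Named genes were the members, their 5 most similar genes, and list genes that passed or else the 4 with the smallest p between classes in heart-free libraries; other genes named were chosen after their values were seen.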

Additional observations from a re-analysis of the deposited data

Results flagged for a closer look

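Over 24 sets of clones of one class, 6 values stood farther from the nearest other clone than Dixon's 95% criterion allows. For normal values chance gives about 1 in 20 sets, but the criterion was applied to CPM without a log scale. Such levels can be skewed, as for Cxcl2 over all libraries in T cell low clones (34.4 ± 39.9 CPM, SD, n = 9, median 17.4). That rate therefore need not hold here, and the sets share libraries. Clone yfp_6556c3 accounted for 4 of them. Among T cell low clones it had 137.5 CPM of Cxcl2 over all libraries, with the next clone at 41.2 CPM, and 62.2 CPM of Cxcl3, with the next at 13.5 CPM. In libraries with heart transcripts it had 218.4 CPM of Cxcl2, with the next T cell low clone at 69.1 CPM, and 95.5 CPM of Cxcl3, with the next at 17.4 CPM. That library of yfp_6556c3 also held the highest neutrophil marker sum of all libraries, 312 CPM. Its heart-free library had 28.2 CPM of Cxcl2 and 17.1 CPM of Cxcl3 and did not stand apart. Clone yfp_7160c2 had 115.9 CPM of Cxcl2 and 68.3 CPM of Cxcl5 in its library with heart transcripts, with the next T cell high clones at 50.6 and 30.8 CPM. Its sister clone yfp_7160c5, of the intermediate class, had 96.7 and 61.0 CPM in its library with heart transcripts. These libraries of the sister clones lay close to each other (2.57 by the measure of closeness), so they are not separate measurements to that extent. The same holds for the libraries that yfp_7160c2 was set against. Those of yfp_6499c4, yfp_6555c3, yfp_6556c4 and yfp_6620c1 with heart transcripts lay 1.49 to 2.04 from each other. Their narrow spread makes the criterion easier to pass.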

How the results depend on the processing

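No alternative called a member between T cell high and T cell low clones, by edgeR, DESeq2 or limma. Cxcl1 was lower in T cell high clones under all 26 alternatives over all libraries (-1.52 to -0.46 log2, adjusted p from 0.159), all 23 in heart-free libraries (-2.23 to -1.13, from 0.328) and all 12 within lines (-2.55 to -0.15, from 0.357). Cxcl2 was higher in T cell high clones under all 23 heart-free alternatives (0.47 to 1.06).

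Counts of called genes over all libraries were 123 by DESeq2, 127 with each library as a replicate and the heart transcripts as a block, 8 with the tumour number as a replicate block and 1 without the close libraries. Leaving out clones in turn gave 0 to 16, the highest without yfp_2838c3, and 1 without yfp_6421c2. In heart-free libraries the counts were 299 by DESeq2, 1 with each library as a replicate and 1 with the replicate block. Leaving out clones gave 0 to 37, the highest again without yfp_2838c3, and 1 without yfp_6694c2. For intermediate against low clones the count was 0 in heart-free libraries, 0 without yfp_7160c5 and 99 without yfp_6422c5. For the kinds of library it was 5162 without the close libraries, against 9832 with them, with fewer libraries. The other causes were not tested. Deviations of libraries with the same tumour number had a median r of 0.46 (-0.72 to 0.90, 93 pairs), against -0.48 (-0.74 to 0.91, 159 pairs) for different numbers. Libraries with the same number thus tended to deviate together, and the number also marks the kind of library. Since not every pair did so, the numbers were not taken to pair samples.

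Directions that turned all belonged to differences that had not passed. Over all libraries, the Cxcl2 difference was -0.21 in libraries with heart transcripts alone, -0.15 with clones of a line and class summed and -0.45 without the close libraries, and leaving out clones gave -0.23 (without yfp_7160c2) to 0.71 (without yfp_6556c3). Cxcl3 was 0.29 by DESeq2 and 0.035 by permutation, and -0.54 to 0.29 with clones left out, the highest without yfp_6556c3. In heart-free libraries Cxcl3 was -0.00067 with DESeq2 size factors, -0.028 with library totals, -0.0049 with no filter, -0.00049 by DESeq2, -0.066 with each library as a replicate, -0.044 with the replicate block and -0.011 with clones of a line summed. With clones left out it was -0.39 to 0.21, and Cxcl5 was -0.49 to 0.034. Cxcl5 was 0.087 with clones of a line summed. Within lines, Cxcl2 was 0.35 in heart-free libraries and -0.87 to 0.94 with libraries left out. Intermediate against low, Cxcl2 was -0.21 in heart-free libraries and -0.95 to 0.60 with clones left out. Intermediate against high, leaving out clones gave -0.98 to 0.57 for Cxcl2, -0.55 to 0.031 for Cxcl3 and -0.62 to 0.26 for Cxcl5. Between kinds of library, Cxcl5 was 0.24 without the close libraries. Over all libraries, r was 0.046 for Cxcl1 with fibroblast markers (pooled over clones on both sides of the gap, so not read), and -0.12, 0.056 and -0.10 for Cxcl5 with neutrophil, macrophage and fibroblast markers. Of the alternative values, 308 were unchanged, 44 turned direction and 15 moved. A difference or r was unchanged if it kept its direction and side of the threshold, and a count of called genes if it stayed of like size. Those that moved were all counts. Low depth limits Cxcl1 below the gap, where a library held 5 to 37 reads.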
